A study of Mus musculus with 18 samples.

Results

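The comparison described here asks what changes when an oligo(dT) primer, abbreviated dT, is added to random hexamers, abbreviated N6, in the reverse transcription of a very small amount of RNA. It rests on 6 of the 18 libraries of the series: 3 made with N6 alone and 3 made with N6 and dT together, chosen by their primer labels. All of the RNA came from 5G6GR mouse embryonic stem (ES) cells, a line that was grown without feeder cells on gelatin in medium with serum and leukaemia inhibitory factor, under puromycin and blasticidin. For each of the 6 libraries, total RNA that had already been purified was diluted to 10 pg and converted with RT-RamDA, in which cDNA is amplified by strand displacement during reverse transcription, and the library then had 17 PCR cycles. The other RT-RamDA libraries, 3 per primer set from the same kind of input, used not-so-random primers (NSR, hexamer sets that leave out sequences matching ribosomal RNA), NSR with dT, or dT alone. A further 3 bulk libraries came from 200 ng of RNA with ribosomal RNA removed before total RNA sequencing and had 7 PCR cycles. The labels do not say whether replicates came from separate cultures or dilutions, so the tests measure the spread between libraries, which may be technical.

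Random hexamers can anneal anywhere along an RNA, so a long RNA offers more places to start a cDNA than a short one. Oligo(dT) anneals to runs of adenosine, above all the poly(A) tail that nearly every mRNA receives downstream of an AATAAA or ATTAAA signal. Replication-dependent histone mRNAs end in a conserved stem-loop without a tail, and ribosomal RNA, 7SK, the RNA of RNase P and the RNA of RNase MRP carry no tail of the mRNA kind.

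The ends of a few transcripts on which the comparison turns are shown first, as the last 30 bases of the transcript that carried the most counts for its gene. They were taken from the GENCODE vM21 transcripts on GRCm38 (mm10), the sequence is given 5′ to 3′ on the transcript's own strand, and the capitals mark an AATAAA or ATTAAA signal. The first 4 encode ribosomal proteins, and the other pair encode subunits of the respiratory chain and of ATP synthase. The listed transcript of Rpl39 had neither signal in these bases and is shown as the contrast among genes that rose.
Rps29 (chr12:69157722-69157751, minus strand): cacaaagAATAAAaatgtgaagaactttaa
Rplp2 (chr7:141451321-141451350, plus strand): ctgcaAATAAAgtctttttatgtatcttga
Rps28 (chr17:33823050-33823079, minus strand): tgcaactgttaAATAAAgcatttatattaa
Rpl39 (chrX:37082520-37082549, minus strand): ttctggtttataaagtactgaattgccctt
Cox7c (chr13:86044816-86044845, minus strand): aaaattgtaAATAAActaatgacataaaga
Atp5g3 (chr2:73908447-73908476, minus strand): cagtcatttcATTAAAgatgaaaactttaa

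The following 3 histone genes of the cluster on chromosome 13 carry the stem-loop in their 3′ ends, with both arms of the stem in capitals. Hist1h3b and Hist1h2ab shared the same arms, and Hist1h4f differed from them in both arms.
Hist1h3b (chr13:23752815-23752840, plus strand): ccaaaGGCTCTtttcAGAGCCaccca
Hist1h2ab (chr13:23751567-23751592, plus strand): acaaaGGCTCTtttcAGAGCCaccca
Hist1h4f (chr13:23551286-23551311, minus strand): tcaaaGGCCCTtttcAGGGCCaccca

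The deposited values were estimated counts per transcript, which were summed per gene. Without the spike-in rows, the sums were 7625252 to 7666446 estimated counts in the N6 libraries and 7786828 to 7830888 with dT. Markers of ES cells summed to 917 to 958 CPM (counts-per-million of the library total) with N6 and to 1331 to 1428 CPM with dT, and the fibroblast markers Dcn and Lum and the trophectoderm marker Cdx2 were at 0 in all 6 libraries. Primitive endoderm markers summed to 63.7 to 83.2 CPM with N6 and 59.0 to 81.0 CPM with dT, trophectoderm markers to 0.787 to 5.35 and 1.03 to 9.25 CPM, neuroectoderm markers to 1.04 to 2.36 and 1.41 to 2.81 CPM, and fibroblast markers to 0 to 0.918 and 0.128 to 1.28 CPM. Of the primitive endoderm markers, Gata6 alone had a mean of 68.3 CPM with N6 and 57.5 CPM with dT, so those sums mostly reflect 1 gene. The part of all these markers in the results was not tested. In RNA pooled from many cells, fewer cells of a type and less RNA per cell cannot be told apart.

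Adding dT raised a small set of mostly short mRNAs. Of 12443 genes tested with edgeR's quasi-likelihood test, 101 rose (0.812% of those tested) and 21 fell (0.169%) at a Benjamini-Hochberg adjusted p below 0.05. The 101 genes that rose included 41 of the 85 tested cytoplasmic ribosomal protein genes and 9 of the 80 tested nuclear genes of oxidative phosphorylation, and 89 of them were protein-coding. With scaling by library totals in place of TMM (the trimmed mean of M-values, which sets each library's scale from the bulk of its genes), 148 rose and 11 fell, and the median of all genes moved from -0.02 to 0.16 on the log2 scale. Fold changes below are log2 values with N6 and dT over N6, on the TMM scale, with their standard errors (SE).

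Ribosomal protein genes formed the largest named group. Of 87 genes on the list, 85 passed the filter on low counts, 41 rose and none fell, and their median log2 fold change was 0.90 against -0.02 for all genes tested. In 74 of the 85 the 3 libraries with dT did not overlap the 3 with N6, as in 1938 of all genes tested (15.6%), and 82 had a log2 fold change above 0, against 48.4% of all genes. As a share of all estimated counts the group took 0.983%, 0.994% and 0.999% of the N6 libraries and 1.90%, 1.96% and 1.89% of those with dT. The group with dT was thus higher in each library, with no overlap, but an exact two-sided permutation test of 3 against 3 cannot give a p below 0.1, the value it gave (0.167 adjusted over 15 shares). In the libraries primed with dT alone the share was 6.998%, and in bulk it was 5.09%.

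Small-subunit genes held some of the largest changes. Rps29 encodes a zinc-binding protein of the small subunit, and its level was 16.6, 9.54 and 17.8 CPM with N6 and 200, 172 and 178 CPM with dT. This was a log2 fold change of 3.65 (SE 0.26, adjusted p = 0.000267 by edgeR), the greatest in the list. Rps21 stood at 33.5, 27.8 and 24.2 CPM with N6 and at 172, 140 and 164 CPM with dT, a change of 2.48 (SE 0.19). Rps28 stood at 34.9, 25.8 and 27.4 CPM with N6 and at 168, 160 and 158 CPM with dT, a change of 2.46 (SE 0.18). None of the groups of 3 overlapped in these genes. Rps27a, which is made as a fusion with ubiquitin, went from 71.9, 59.8 and 75.8 CPM to 327, 338 and 315 CPM, a change of 2.24 (SE 0.14). Rps20 was already abundant with N6, at 150, 148 and 150 CPM, and reached 538, 501 and 497 CPM with dT. Its change of 1.78 (SE 0.10) had one of the smallest p-values of the list (adjusted p = 0.0001005 by edgeR). Of the 33 small-subunit genes tested 19 rose, with a median of 1.01, and of the 51 large-subunit genes 21 rose, with a median of 0.85.

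Among the large-subunit genes, Rplp2 encodes an acidic protein of the ribosomal stalk. Its level was 36.0, 32.4 and 25.6 CPM with N6 and 256, 250 and 250 CPM with dT, a change of 3.01 (SE 0.17). Rpl39, among the smallest ribosomal proteins, went from 23.6, 20.4 and 20.6 CPM to 165, 161 and 150 CPM, a change of 2.88 (SE 0.17). Rpl22l1, a paralog of Rpl22, went from 5.93, 8.84 and 8.95 CPM to 88.1, 71.2 and 85.9 CPM, a change of 3.37 (SE 0.26). All of these 8 genes, Rps29 to Rpl22l1, kept their call when any of the 6 libraries was left out. The most abundant members did not pass the test. Rpl4 had 799, 754 and 764 CPM with N6 and 677, 714 and 682 CPM with dT (log2 fold change -0.16, adjusted p = 0.705 by edgeR), and Rps2 had a log2 fold change of 0.22 (adjusted p = 0.728 by edgeR). The transcripts behind these 2 genes are longer, 1422 bases for Rpl4 and 998 bases for Rps2, than the 382 bases of Rps28 or the 394 bases of Rps21. Rps20, which rose, had the most counts on a transcript of 3706 bases, longer than either.

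Within the list, the shorter mRNAs had the greater medians. Of 18 ribosomal protein genes with a main transcript under 500 bases 12 rose, with a median log2 fold change of 1.53. Of 27 genes from 500 to below 750 bases 15 rose, with a median of 1.02, while of 20 genes from 750 to below 1000 bases 7 rose, with a median of 0.42. The 20 genes of 1000 bases or more again included 7 that rose, and their median was 0.61. The rank correlation of length with change over the 85 genes was -0.365, a description across genes that share their libraries.

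The nuclear genes of oxidative phosphorylation, which encode the respiratory complexes and ATP synthase, lay to the same side with fewer calls. Of 80 tested 9 rose and none fell, the median was 0.91, and 74 had a log2 fold change above 0. Atp5g3, a subunit of the rotating ring of ATP synthase, went from 11.3, 9.96 and 13.6 CPM to 54.0, 48.6 and 53.9 CPM (log2 fold change 2.17, SE 0.26, adjusted p = 0.00581 by edgeR), with its call kept without any library. Cox7c, a small subunit of cytochrome c oxidase, went from 9.38, 3.79 and 4.61 CPM to 35.7, 33.9 and 40.8 CPM (log2 fold change 2.63, SE 0.41, adjusted p = 0.0223 by edgeR). The groups did not overlap, yet the call on Cox7c held only without N6 replicate 1 (adjusted p = 0.0145 by edgeR), and without each other library its adjusted p was between 0.0872 and 0.122. The other 7 genes that rose were Atp5g1, Ndufa1, Cox7b, Cox4i1, Cox8a, Uqcrh and Ndufb6. They are named because they complete the count, not by the rule for named genes.

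The count for this group depended on every library. With 1 library left out, 1 or 2 of the genes were called, 2 without N6 replicate 1 and 1 without each of the others, while the group's median stayed between 0.87 and 1.03. By complex, 2 of 37 genes of complex I, none of 4 of complex II, 1 of 9 of complex III, 4 of 13 of complex IV and 2 of 17 of ATP synthase rose, with medians of 1.05, 0.51, 0.98, 1.22 and 0.58. The longer mRNAs of the group, Atp5b and Atp5a1, which encode the catalytic core of ATP synthase, had log2 fold changes of -0.01 and 0.22 and did not pass the test. The rank correlation of length with change in the list was -0.547. As a share of all counts the group took 0.168% with N6 and 0.286% with dT, a mean of 3 libraries each, with SDs of 0.00247 and 0.00797 percentage points and no overlap (exact permutation p = 0.1).

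**Figure D1:**
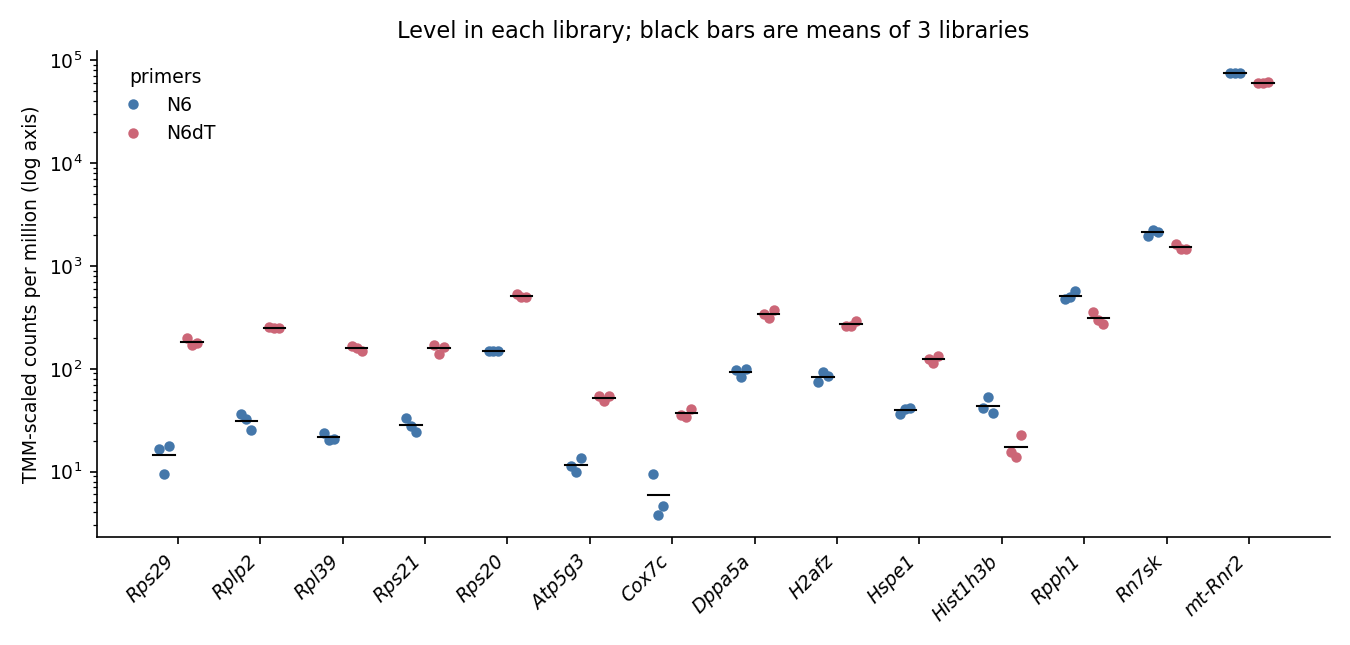
Levels of 14 genes in the 3 N6 and the 3 N6 and dT libraries, as TMM-scaled CPM on a log axis, with black bars at the mean of 3 libraries. The points with dT lie above those with N6 without overlap from Rps29 (16.6, 9.54 and 17.8 against 200, 172 and 178) to Hspe1, and below them without overlap for Hist1h3b, Rpph1, Rn7sk and mt-Rnr2.

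Other short mRNAs rose too. Dppa5a, an RNA-binding protein of pluripotent cells, went from 97.9, 83.6 and 98.5 CPM to 343, 309 and 376 CPM, a log2 fold change of 1.88 (SE 0.14, adjusted p = 0.000308 by edgeR), and was the only one of 38 tested pluripotency genes to rise. It is 1 of the 6 ES cell markers summed above. Pou5f1, Nanog and Sox2, the transcription factors at the centre of pluripotency, had log2 fold changes of -0.18, 0.04 and 0.42 and did not pass the test (adjusted p = 0.905, 0.990 and 0.352 by edgeR). Hspe1, the mitochondrial co-chaperonin, went from 36.0, 40.4 and 41.5 CPM to 124, 115 and 132 CPM. Its log2 fold change was 1.65 (adjusted p = 0.00209 by edgeR). Hspe1 lies outside the rule for named genes and was chosen after its values were seen.

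Other lists of housekeeping mRNAs had few calls. None of 76 tested mitochondrial ribosomal protein genes passed edgeR's test, with a median of 0.22 (5 at an unadjusted p below 0.05, none by DESeq2). Of all genes tested 7.94% had an unadjusted p below 0.05, and DESeq2 called 1.87% higher and 0.612% lower. None of 38 proteasome subunit genes did, with a median of 0.34 (9 at an unadjusted p below 0.05, 4 by DESeq2). Psma2 went from 17.5, 24.4 and 22.1 CPM to 51.6, 50.9 and 50.5 CPM, a log2 fold change of 1.26 (adjusted p = 0.0553 by edgeR). Of 33 translation factors 1 rose, Eef1b2, from 128, 120 and 148 CPM to 244, 265 and 207 CPM (log2 fold change 0.85, adjusted p = 0.0373 by edgeR). The groups did not overlap, but without each library in turn the adjusted p of Eef1b2 was 0.0748 to 0.184, so the call needed all 6. Eef1a1, the most abundant factor of the list, had a log2 fold change of 0.03.

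Genes of the cell cycle (34 tested, median 0.01), glycolysis (18, median -0.04) and the host genes of small nucleolar RNAs (17, median 0.55) had no call in either direction by edgeR. By DESeq2 they had 0, 2 and 1, all higher, and at an unadjusted p below 0.05 by edgeR 4, 5 and 8 in either direction, where 7.94% of all genes had one. Actb and Gapdh, often used as references, had log2 fold changes of -0.17 and -0.37 (adjusted p = 0.722 and 0.145 by edgeR). With library-total scaling the glycolysis median was 0.14, so its sign rested on the scaling.

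Over all protein-coding genes the change ran along transcript length. The share of genes that rose was 13.7% of the 153 tested with a main transcript under 500 bases, 6.29% of the 715 from 500 to below 1000 bases, 0.713% of the 2103 up to 2000 bases, 0.114% of the 4394 up to 4000 bases and 0.106% of the 2831 up to 8000 bases. None of the 405 genes from 8000 to below 12000 bases or the 98 of 12000 bases or more rose. The medians were 0.19, 0.41, 0.15, -0.03, -0.10, -0.13 and -0.12 in that order. The class under 500 bases had the greatest share of calls, but the place of its median rested on the choice of genes and libraries. Its median was 0.32 without N6 replicate 2, 0.35 with near-identical copies summed, and 0.64 among genes whose log2 CPM averaged at least 5, where the next class had 0.49. Of the 101 genes that rose 77 had a main transcript under 1000 bases, as did 11.9% of all genes tested.

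Leaving the ribosomal protein and oxidative phosphorylation genes out kept part of this order. The medians were then 0.01 under 500 bases, 0.35 from 500 to below 1000 bases and 0.14 from 1000 to below 2000 bases, and 8, 16 and 9 genes rose in these classes. Genes that are not protein-coding did not follow it in their medians: 347 of them with a main transcript under 500 bases had a median of -0.31. Of these, 7 rose (2.02%) and 3 fell. From 500 to below 1000 bases 4 of 262 rose (1.53%) and 7 fell, and from 1000 to below 2000 bases 0 of 431 rose and 5 fell. The rank correlation of length with change over 10699 protein-coding genes was -0.192. Very long mRNAs included Tet1, an enzyme that oxidises methylcytosine, and Huwe1, a ubiquitin ligase, with log2 fold changes of -0.24 and -0.33, neither past the test. The 98 tested genes listed as very long had a median of -0.12, or 0.06 with library-total scaling, and none was called by edgeR. At an unadjusted p below 0.05 there were 2 higher and 11 lower, and DESeq2 called 2 lower.

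**Figure D2:**
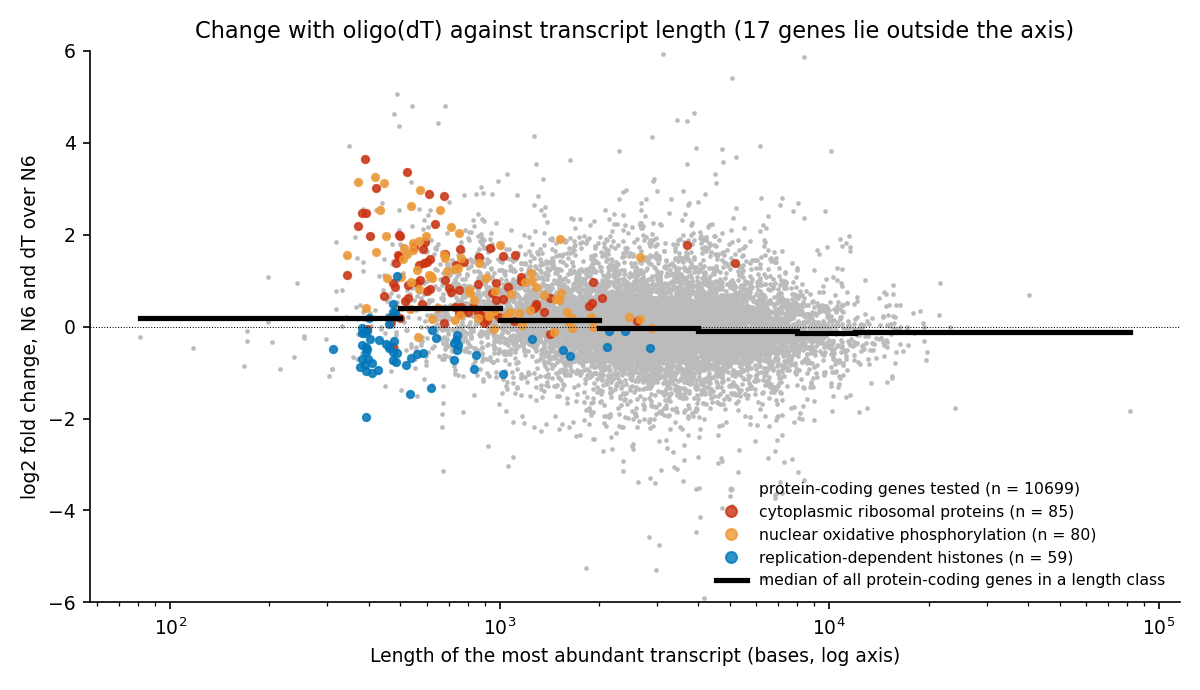
Log2 fold change of N6 and dT over N6 for 10699 protein-coding genes against the length of the most abundant transcript on a log axis, with 85 ribosomal protein, 80 oxidative phosphorylation and 59 histone genes in colour and black lines at the median of each length class. The medians run from 0.19 and 0.41 in the shortest classes to -0.12 in the longest, and 17 genes lie outside the axis.

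The poly(A) signal at the transcript's end was a further feature that the choice of genes had not used. Among 10661 tested protein-coding genes with a matching vM21 transcript, the last 50 bases held AATAAA in 61.7% and AATAAA or ATTAAA, on the transcript's strand, in 75.8%. Of 85 ribosomal protein genes 75 (88.2%) held one, and of 88 protein-coding genes that rose 70 (79.5%) did. Among protein-coding genes under 1000 bases, histones aside, the 518 with a signal had a median log2 fold change of 0.59 and 51 of them (9.85%) rose. The 290 without one had a median of 0.17 and 14 of them (4.83%) rose. Ribosomal protein and oxidative phosphorylation genes were kept in these classes, and their part in the difference was not tested. From 1000 to below 2000 bases the medians were 0.17 with a signal and 0.09 without, and at 2000 bases or more they were -0.05 and -0.10. A match to these letters is a description of the annotated end and not of a site in use.

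The replication-dependent histones lay on the other side of the median of all genes. Of 68 genes on the list 59 were tested, 7 had a log2 fold change above 0, the median was -0.47, and none passed edgeR's test, while 13 had a lower value at an unadjusted p below 0.05, as did 3.29% of all genes tested, and DESeq2 called 2 lower. The stem-loop was sought in a longer stretch of the transcript's end than the 50 bases used for the poly(A) signal. It was found in 18 of the 59 (30.5%) and in 19 of all 10661 protein-coding genes (0.178%), so most of the annotated histone ends did not show it. The last 50 bases held AATAAA or ATTAAA in 13 of the 59 (22.0%), against 75.8% of all tested protein-coding genes. Hist1h3b, an H3 gene, stood at 41.4, 52.9 and 37.5 CPM with N6 and at 15.6, 13.9 and 22.5 CPM with dT, with no overlap. Its log2 fold change was -1.34 (SE 0.30, adjusted p = 0.109 by edgeR). Hist1h1d, a linker histone, stood at 204, 240 and 218 CPM with N6 and at 165, 142 and 155 CPM with dT, a log2 fold change of -0.52 (adjusted p = 0.183 by edgeR).

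Many histone genes are near-identical, so their counts were also summed by family, in which case 21 families were tested, 1 fell and the median was -0.46. The family that fell held 9 genes including Hist1h3b, with a log2 fold change of -0.84 (SE 0.13, adjusted p = 0.0222 by edgeR). The list took 0.261% of all counts with N6 and 0.225% with dT, against 0.0473% with dT alone and 1.301% in bulk. Of 9 replacement histone genes, whose mRNAs are polyadenylated, 2 rose, with a median of 0.15, 5 values above 0 and a lowest value of -0.53. H2afz, which encodes H2A.Z, went from 74.3, 93.5 and 84.3 CPM to 259, 261 and 290 CPM, a log2 fold change of 1.68 (SE 0.14, adjusted p = 0.000688 by edgeR), kept without any library. H3f3a, which encodes H3.3, went from 130, 134 and 113 CPM to 209, 211 and 209 CPM (log2 fold change 0.74, adjusted p = 0.0378 by edgeR). Its groups were apart, but without each of the 6 libraries in turn its adjusted p was 0.108 to 0.170.

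Small RNAs that lack a poly(A) tail were lower with dT in value, with few calls. Of 34 on the list 19 were tested, none had a log2 fold change above 0, the median was -0.56, and 2 fell. With 1 library left out the median was -0.85 (without N6dT replicate 1) to -0.20 (without N6 replicate 1), and -0.27 without N6dT replicate 3 and -0.32 without N6 replicate 3. Rn7sk, the scaffold RNA that holds the elongation factor P-TEFb inactive, stood at 1953, 2251 and 2163 CPM with N6 and at 1639, 1450 and 1468 CPM with dT (log2 fold change -0.48, adjusted p = 0.0264 by edgeR). Rpph1, which forms RNase P, had levels of 476, 497 and 573 CPM with N6 and of 359, 295 and 274 CPM with dT (log2 fold change -0.74, SE 0.13, adjusted p = 0.0401 by edgeR). In both RNAs the groups did not overlap. With library-total scaling neither passed the test (log2 fold change -0.30 and -0.56, adjusted p = 0.111 and 0.0972 by edgeR). The call on Rn7sk held only without N6 replicate 1 or N6dT replicate 1 (otherwise adjusted p = 0.125 to 0.149 by edgeR), and that on Rpph1 only without N6dT replicate 1 (otherwise 0.102 to 0.212). Rmrp, the RNA of RNase MRP, had a log2 fold change of -0.56 (adjusted p = 0.109 by edgeR). The list took 0.547% of all counts with N6, 0.460% with dT, 0.117% with dT alone and 5.43% in bulk.

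Small nucleolar and Cajal body RNAs, which guide the modification of other RNAs, were seldom measured: 15 of 133 were tested, none was called by edgeR or DESeq2 or at an unadjusted p below 0.05, and the median was -0.39. Its sign was not stable, at 0.18 with near-identical copies summed and 0.24 with NSR. Of 15 nuclear long noncoding RNAs none was called in any of these ways either, with a median of 0.00. Malat1 and Neat1, which are retained in the nucleus, had log2 fold changes of -0.10 and 0.11.

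Ribosomal RNA and rRNA-like genes took a large share of the counts in both groups. Genes of the rRNA and rRNA-like list made up 53.1% ± 0.429 (SD, n = 3) of counts with N6 and 49.6% ± 1.63 (SD, n = 3) with dT, 17.6% with dT alone and 10.35% in bulk. With dT alone most of that share was Lars2, at a mean of 159300 CPM of the library total against 90060 with N6, while Rn18s-rs5 was at 2772 CPM against 192000. Rn18s-rs5, which holds 18S-like sequence, stood at 206400, 205800 and 200900 CPM with N6 and at 173300, 144700 and 160600 CPM with dT (log2 fold change -0.36, adjusted p = 0.0152 by edgeR). It kept its call only without N6dT replicate 1 or 2 (adjusted p = 0.00458 and 0.00629 by edgeR), with 0.0751 to 0.0888 without each other library. Of 9 such genes tested 4 fell: Rn18s-rs5, Lars2, Gm42418 and Gm26917. Lars2 encodes the mitochondrial leucyl-tRNA synthetase and Gm42418 and Gm26917 are predicted loci, all counted here as rRNA-like. Their log2 fold changes were -0.26, -0.23 and -0.31, with adjusted p = 0.0108, 0.0165 and 0.00800 by edgeR. Lars2 and Gm42418 lost their calls without N6 replicate 2, N6 replicate 3 or N6dT replicate 3 (adjusted p up to 0.0770 and 0.103 by edgeR), and Gm26917 lost its call without N6 replicate 2, N6dT replicate 2 or N6dT replicate 3 (up to 0.0634). With library-total scaling none of the 4 passed the test (adjusted p = 0.0529, 0.138, 0.526 and 0.223 by edgeR), and DESeq2 called none of them.

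The mitochondrial rRNAs had the smallest standard errors among genes that fell. mt-Rnr2, the large-subunit rRNA, stood at 74590, 75220 and 75640 CPM with N6 and at 59830, 60630 and 62290 CPM with dT, a log2 fold change of -0.30 (SE 0.02), kept without any library. mt-Rnr1, the small-subunit rRNA, stood at 48990, 49980 and 49610 CPM with N6 and at 39390, 40170 and 41370 CPM with dT, also a change of -0.30. With library-total scaling the changes were -0.12 for both and did not pass the test (adjusted p = 0.0825 and 0.153 by edgeR), nor did they by DESeq2 (adjusted p = 0.0637 and 0.0800). Their share of counts was 11.7% with N6, 10.8% with N6 and dT, and 5.95% with dT alone. The 2 differed with dT alone. There mt-Rnr2 was at a mean of 58990 CPM of the library total against 70580 with N6, and mt-Rnr1 at 503 against 46510.

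Numa1, with a main transcript of 7153 bases for a protein of the spindle poles, fell from 87.2, 108 and 98.0 CPM to 38.2, 45.3 and 42.8 CPM, with no overlap. Its log2 fold change was -1.22 (adjusted p = 0.0180 by edgeR). The call held only without N6 replicate 1 (adjusted p = 0.0484 by edgeR), with 0.0786 to 0.102 without each other library.

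Some of the largest fold changes were absent once near-identical sequences were summed. mt-Atp6, an ATP synthase subunit encoded in the mitochondrial genome, had 512, 1100 and 338 estimated counts with N6 and 19757, 21748 and 21756 with dT. Gm10925, which is nearly identical to it, had 21412, 18912 and 20046 counts with N6 and 0, 0 and 0 with dT. Against a floor of 3 counts in each library with dT, Gm10925 was at least 6848-fold lower with dT. The sum of both had a log2 fold change of -0.19 (SE 0.05, adjusted p = 0.247 by edgeR), where mt-Atp6 alone had 4.81.

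The same held for mt-Co2, a subunit of cytochrome c oxidase, with 32, 167 and 484 counts with N6 and 17743, 18434 and 16686 with dT. Gm28661 had 18648, 17966 and 16761 counts with N6 and 175, 823 and 2266 with dT. The sum had a log2 fold change of -0.16 (adjusted p = 0.364 by edgeR), where mt-Co2 alone had 6.06, a call lost without N6 replicate 2 (adjusted p = 0.0778 by edgeR). mt-Co3 and Gm28437 exchanged counts in the same direction, from 3492, 1879 and 6346 to 18401, 20428 and 19574 for mt-Co3 and from 14138, 14493 and 10839 to 10, 13 and 0 for Gm28437. Their sum had a log2 fold change of -0.02 (adjusted p = 0.976 by edgeR).

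A ribosomal protein gene of this kind was Rpl24, with 170, 242 and 217 counts with N6 and 1873, 1645 and 1687 with dT. Its copy Gm28037 had 1340, 1527 and 1447 counts with N6 and 18, 0 and 54 with dT. The sum had a log2 fold change of -0.12 (adjusted p = 0.943 by edgeR), against 2.84 for Rpl24 alone.

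**Figure D3:**
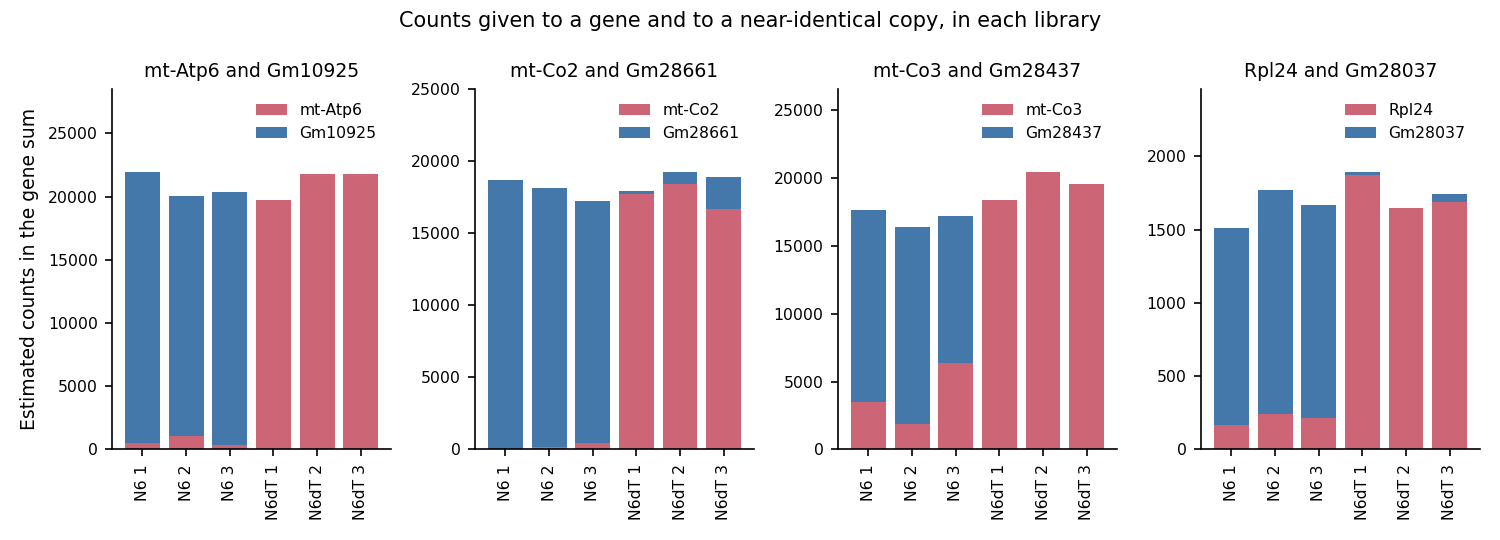
Estimated counts given to a gene (red) and to a near-identical copy (blue), stacked, in each of the 6 libraries. The stack keeps about its height while its colours change places: Gm10925 holds 21412, 18912 and 20046 counts with N6 and 0 in each library with dT, where mt-Atp6 holds 19757, 21748 and 21756.

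Genes called or listed were therefore compared with all other transcripts by shared runs of 31 bases, and 82 families that shared 50% or more of them were summed before the fit. Of 12315 sums and genes, 81 rose (0.658%) and 15 fell (0.122%). Of the 101 genes that had risen 15 lost their call and 86 lay in 80 sums that rose, and 1 sum was newly called. Of the 21 that had fallen 8 lost their call, and 2 sums were newly called. The ribosomal protein list had 41 calls of 85 here too, with a median of 0.88 and log2 fold changes of 3.64 for Rps29 and 2.73 for Rplp2, and the oxidative phosphorylation list had 8 of 80. Of 13 mitochondrial mRNAs 4 rose as deposited and none after summing. With their copies these mRNAs took 2.31% of counts with N6 and 2.33% with dT (exact permutation p = 1), against 1.59% and 2.27% without the copies.

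A mitochondrial transfer RNA gene held the largest change among the listed genes. mt-Ts1, a serine tRNA on the minus strand at chrM:6870-6938, stood at 0.138, 0.140 and 0.839 CPM with N6 and at 45.6, 44.5 and 43.5 CPM with dT. Its log2 fold change was 6.84 (SE 0.60, adjusted p = 0.000786 by edgeR), kept without any library, and it was 9.14 with NSR primers. The gene overlaps the 3′ end of mt-Co1, which spans chrM:5328-6872 on the plus strand, and the strand setting of the counting is not given in the sources used here, so reads of mt-Ts1 and of the polyadenylated end of mt-Co1 cannot be told apart. mt-Co1 itself had a log2 fold change of -0.16. mt-Te, a glutamate tRNA on the minus strand at chrM:14071-14139, beside the start of mt-Nd6 (chrM:13552-14070, minus strand), stood at 2.48, 3.37 and 1.26 CPM with N6 and at 11.7, 14.2 and 15.8 CPM with dT (log2 fold change 2.54, adjusted p = 0.0990 by edgeR). Of 22 mitochondrial tRNAs 7 were tested and mt-Ts1 alone rose.

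By transcript biotype, transcripts annotated as protein-coding took 35.5% ± 0.189 (SD, n = 3) of counts with N6 and 40.2% ± 0.910 (SD, n = 3) with dT, against 81.1% with dT alone. Pseudogene transcripts took 3.25% and 2.72%, and both differences were without overlap (exact permutation p = 0.1, the smallest possible). The copies of mitochondrial mRNAs described above took 0.716% of counts with N6 and 0.059% with dT; what part of the pseudogene difference they make up was not tested. Retained-intron transcripts took 2.215% and 2.159% (exact permutation p = 0.4), and lincRNA and antisense transcripts 23.0% and 22.2% (exact permutation p = 0.2). Once rRNA, rRNA-like and mitochondrial genes were left out of the total, protein-coding transcripts took 75.0% with N6 and 78.5% with dT, and retained-intron transcripts 6.73% and 5.80%. Ribosomal protein genes then took 3.02% and 5.15%.

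Against bulk RNA-seq, short mRNAs lay lowest with N6, and the gap was smaller with dT. For 112 genes under 500 bases with 10 CPM or more in bulk, the median log2 ratio of (CPM + 1) to that in bulk was -2.62 ± 0.14 (SD, n = 3) with N6, -1.56 ± 0.02 (SD, n = 3) with N6 and dT, and -0.28 with dT alone. For 534 genes from 500 to below 1000 bases it was -2.05, -1.38 and 0.23. For 387 genes from 8000 to below 12000 bases it was -1.13, -1.11 and -1.26, and for 91 genes of 12000 bases or more -1.16, -1.04 and -1.67. The greater rRNA share of the 10 pg libraries lowers all these values, so the differences between length classes are the comparison: with N6 the shortest class lay 1.46 below the longest, and with dT 0.52 below it. Over genes with 1 CPM or more in bulk these gaps were smaller, 0.50 and 0.20. With dT alone the longest class was the lowest at both cutoffs, and the class from 500 to below 1000 bases was the highest. The class under 500 bases lay below that one, at -0.28 for 10 CPM or more and -0.86 for 1 CPM or more.

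**Figure D4:**
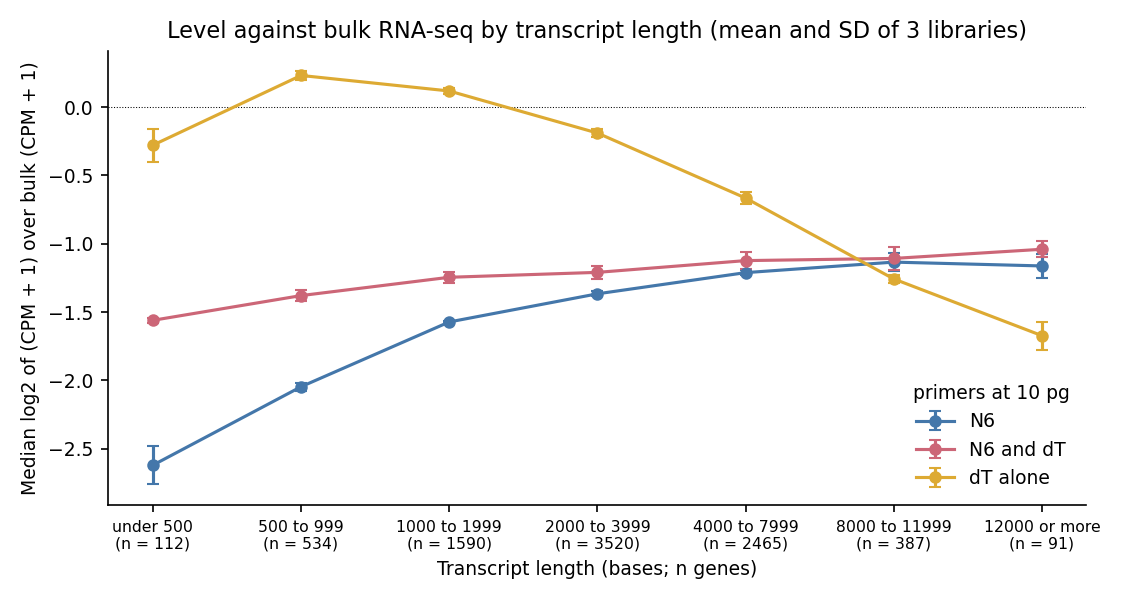
Median log2 of (CPM + 1) over (CPM + 1) in bulk, by transcript length, for N6, for N6 and dT, and for dT alone, as mean and SD of 3 libraries. The N6 line climbs from -2.62 under 500 bases to -1.16 at 12000 bases or more, the line with N6 and dT starts at -1.56 and ends at -1.04, and the line for dT alone ends at -1.67.

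The rank correlation of gene levels with bulk, over 16151 genes with 1 CPM or more in bulk, was 0.879, 0.880 and 0.879 with N6 and 0.895, 0.893 and 0.893 with dT, against a mean of 0.838 with dT alone. The values with N6 and with dT did not overlap (exact permutation p = 0.1). Bulk replicate 2 stood apart in its primitive endoderm markers (604 CPM against 137 and 148 in the other bulk libraries), and without it the means were 0.884 with N6 and 0.899 with dT.

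More genes were also detected with dT. At an equal depth of 5333000 counts, 17454, 17176 and 17337 genes had a count with N6 and 17853, 17822 and 17765 with dT, a mean difference of 491.0 genes (exact permutation p = 0.1). The groups did not overlap, also at 5 counts or more (a difference of 255.7) and without thinning (567.3). When rRNA, rRNA-like and mitochondrial genes were left out before thinning, the difference was 329.3. Of genes from 500 to below 1000 bases with 1 CPM or more in bulk, 12.9% were undetected with N6 and 9.80% with dT, the length class with the largest difference. Over all lengths 10.9% and 9.72% were undetected, and of the 116 genes of 12000 bases or more 5.46% and 6.32%. The spread between replicates was described but not tested: over genes with 10 CPM or more in bulk, the median coefficient of variation under 500 bases was 0.246 with N6 and 0.184 with dT, and that of all 9311 such genes was 0.315 and 0.302. With 1 CPM or more in bulk it was 0.420 and 0.357 under 500 bases.

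Genes with counts in all libraries of one group and none in the other were few. At 5 counts or more in each library, 28 were seen only with dT, 16 of them protein-coding, and 9 only with N6. At 20 counts or more there were 4 only with dT. Kif3c, a kinesin motor, had 52, 68 and 37 counts with dT and 0 with N6, at least 17.1-fold higher against a floor of 3 counts in each library. It and the other 3, Gm10012, Gm26377 and Rpl10a-ps1, fall outside the rule for named genes and are given to complete the count. Gm10925 and Gm5537 were the 2 seen only with N6.

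Adding dT to NSR primers gave a second pair of groups with no libraries in common. Its calls came from a fit of all 12 libraries with N6 or NSR, with or without dT. That fit shared its low-count filter and estimate of spread among these libraries. Counts of calls are thus not like for like with those from the 6 libraries. With NSR, 139 of 14932 genes rose (0.931%) and 45 fell (0.301%). Of the 101 genes that rose with N6, 100 had the same sign with NSR and 76 were called, where 48.3% of all genes had that sign and 1.12% were called. Their medians were 1.68 with N6 and 1.46 with NSR. Of the 21 that fell, 19 had the same sign and 16 were called, where 51.6% of all genes had it and 0.362% were called. With near-identical copies summed, 80 of the 81 that rose and 13 of the 15 that fell had the same sign. Of these, 62 and 12 were called, against 0.983% and 0.300% of all genes. As deposited, the rank correlation of the 2 changes over 12443 genes was 0.166. It was 0.382 for the 2570 genes whose log2 CPM averaged at least 5. By list, 51 of 86 ribosomal protein genes rose with NSR, with a median of 0.91, 12 oxidative phosphorylation genes rose, and 7 of 61 histone genes fell, with a median of -0.60. Of 20 small RNAs 5 fell with NSR, with 8 values above 0 and a median of -0.11, nearer to 0 than with N6. Rps29 had a log2 fold change of 3.84 with NSR and Numa1 one of -0.34 (adjusted p = 0.918 by edgeR).

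**Figure D5:**
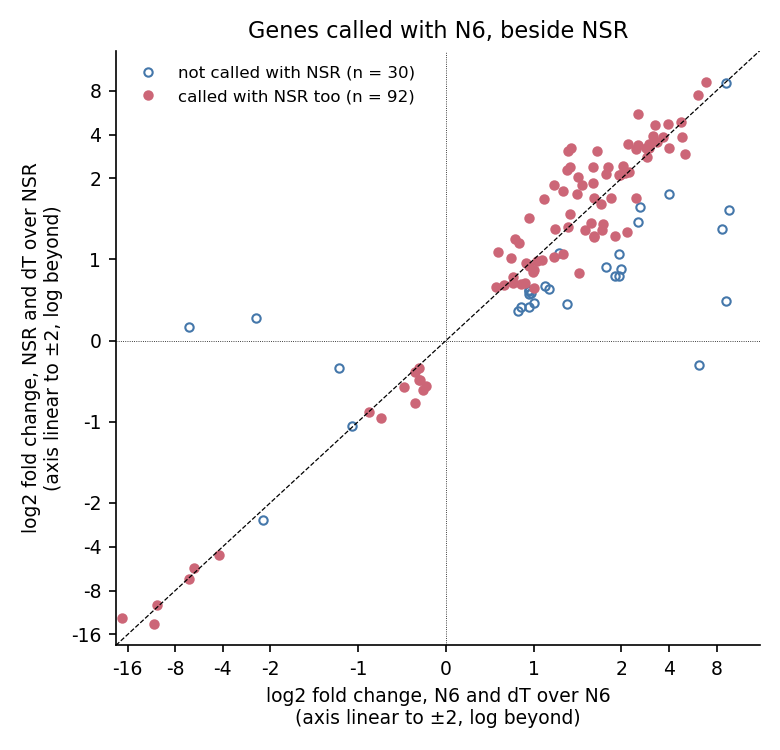
Log2 fold changes with dT for the genes called with N6 (horizontal axis) and the same genes with NSR (vertical axis), both linear to 2 in either direction and logarithmic beyond, with a dashed line of equal change. Filled points are the 92 genes called with NSR too and open points the 30 that were not.

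Whether the effect of dT differed between N6 and NSR was tested as an interaction over 14932 genes, and 4 differed (0.0268%; 769 at an unadjusted p below 0.05). They were Lrrtm2, Rpl27-ps3, Gm42418 and Gm29216. None is itself a ribosomal protein, oxidative phosphorylation or histone gene of the lists. Rpl27-ps3, however, is a near-identical copy of the ribosomal protein gene Rpl27. With copies summed, the sum that holds both was called too, with a difference of 1.45 (adjusted p = 0.0407 by edgeR). With 1 of the 12 libraries left out, 0 to 5 genes were called.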

How the data were processed

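The deposited table held estimated counts per transcript, not all whole numbers, from the authors' own quantification of 18 libraries, with 115125 transcript entries of 47643 genes and 92 ERCC spike-in rows. The mm10 build and bcl2fastq 2.16.0.10 are named, per the submitters' processing notes; which aligner, quantifier, strand setting and annotation release were used is not given in the sources used here. Estimated counts were summed per gene id, rounded to whole numbers, and the ERCC rows left out. A library's groups came from its labels.

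Tests across genes used edgeR 4.0.16 in R 4.3.3, over the 6 libraries. The change with NSR primers and the interaction were tested over 12 libraries. Settings were the default filter on low counts, TMM factors, the quasi-likelihood test and Benjamini-Hochberg adjustment over all genes tested. Genes with an adjusted p below 0.05 were called. Alternatives were DESeq2 1.42.0, library-total scaling, no filter, rRNA, rRNA-like and mitochondrial genes left out, all 15 RT-RamDA libraries in one fit, a replicate block, and each library left out. Summing near-identical copies, leaving libraries out for detection, rank correlation and length, and the bulk mean without bulk replicate 2 were chosen after seeing the data. The code was tested on simulated data. Single values were compared by exact two-sided permutation tests (scipy 1.17.1), whose smallest p for 3 against 3 is 0.1.

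Members and gene lists were chosen with earlier results of these data known. Named genes were up to 10 higher and 10 lower called genes by fold change, those whose log2 CPM averaged at least 5 and whose groups did not overlap (without predicted symbols and numbered pseudogenes), the 2 most abundant and the 2 of smallest p from every list, a fixed set of reference genes, and genes of the interaction. Lengths are those of the transcript with the most counts. Transcript sequences were matched by id to GENCODE vM21, for 10661 of 10699 tested protein-coding genes. Replicates carry the same letters across groups, but residuals of same-lettered libraries correlated at 0.00538 to 0.0132 over 12443 genes, so the letters were not taken to pair them. Replicates of a group differed by more than sampling noise. Reads without molecular identifiers are not independent molecules, so counts overstate the precision of single libraries. Genes with near-identical copies and overlapping genes are uncertain.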

Additional observations from a re-analysis of the deposited data

Results flagged for a closer look

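The effect of adding dT differed between NSR and N6 primers in 4 genes by an interaction test in edgeR, with the effect with NSR minus that with N6 given here on the log2 scale. Lrrtm2, a synaptic adhesion protein, had a difference of -9.99 (adjusted p = 0.0387 by edgeR), from 0.27 with N6 and -9.72 with NSR; all 3 libraries with NSR and dT were at 0, so the size depends on the fit and is no bound. Rpl27-ps3, which has a pseudogene symbol but is annotated as protein-coding, had a difference of 1.81 (adjusted p = 0.0387 by edgeR). Its changes were 1.43 with N6 and 3.24 with NSR, and summed with its copies the difference was 1.45. Gm42418, an rRNA-like locus, had a difference of -0.33 (adjusted p = 0.0488 by edgeR), with -0.23 and -0.55. Gm29216, annotated as an unprocessed pseudogene, had a difference of 6.38 (adjusted p = 0.0437 by edgeR), with -0.38 and 6.001. It stood at 3.12, 0 and 9.95 CPM of the library total with NSR and at 308, 374 and 350 CPM with NSR and dT. Whether its counts were exchanged with those of another gene was not tested. With 1 of the 12 libraries left out at a time, Lrrtm2 and Gm29216 were called in 2 of 12 fits and Rpl27-ps3 and Gm42418 in 1 of 12.

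The ERCC spike-in rows, which no comparison used, took 0.373% of all estimated counts on average with N6 and 0.378% with N6 and dT. Groups of 3 libraries are too small for a test of single outlying libraries, and none was made.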

How the results depend on the processing

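DESeq2 called 247 genes higher and 88 lower, no filter 180 and 92, the fit of 15 libraries 154 and 24, and library-total scaling 148 and 11, against 101 and 21. With 1 library left out 43 to 61 were higher (61 without N6 replicate 1) and 5 to 21 lower (5 without N6 replicate 2, 7 without N6 replicate 3, 10 without N6dT replicate 3). Same-numbered libraries share a letter in their labels, which was not taken to pair them, and 3 of 6 correlated best with their own letter. With the replicate block 33 genes were higher, 23 of them ribosomal protein genes, and 4 were lower. With the block 0 oxidative phosphorylation genes, 0 small RNAs and 0 genes of the interaction were called. Ribosomal protein calls were 29 to 32 with a library left out.

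Oxidative phosphorylation calls were 26 with DESeq2, 17 with no filter, 20 in the fit of 15 libraries and 1 to 2 with a library left out, against 9. Histone genes called lower were 2 with DESeq2, 3 with no filter and 1 with copies summed, against 0. Small RNAs called lower were 0 with library totals, 1 in the fit of 15 libraries and 0 to 2 with a library left out, against 2. Interaction genes were 10 with library totals, 74 with no filter and 0 to 5 with a library left out.

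The share difference of very long transcripts (0.0149 points) was -0.263 without rRNA and mitochondrial genes in the total and -0.00528 to 0.0411 with a library left out. That of transcripts without a reading frame (0.0471) was -0.270 without those genes, and that of nonsense-mediated decay transcripts (-0.0121) was -0.0253 to 0.0059 with a library left out. The difference in the share of mitochondrial mRNAs (0.674) was 0.0163 with copies summed. The median change under 500 bases was 0.079 by weighted mean length and 0.24 to 0.32 with a library left out. That from 2000 to below 4000 bases was -0.037 to -0.011 with a library left out. With copies summed, mt-Co2, mt-Atp6 and Rpl24 reversed to -0.16, -0.19 and -0.12. Their sums hold the copies with fewer counts with dT that are described above. The causes of these differences between settings were not tested. Among 92 named genes (80 without rRNA and mitochondrial genes) no called gene changed sign under the other settings; of uncalled ones up to 12 did, with library totals, and 0 to 4 under each of the rest. Of the 92, 74 kept their side of the threshold with DESeq2, 77 with library totals and 80 with the block.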
